A study of Mus musculus with 11 samples.

Results

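The smooth muscle and myofibroblast contractile genes are 10 genes that encode or regulate the contractile filaments of smooth muscle: Acta2, Actg2, Tagln, Cnn1, Cald1, Tpm1, Tpm2, Lmod1, Myh11 and Myl9. They were found by matching these symbols to the Ensembl identifiers of the count tables, and all 10 of 10 were present among 56980 Ensembl genes. RNA was sequenced, after ribosomal RNA depletion, from primary lung fibroblasts of single mice, cultured in 5% CO2 and 5% O2. All cultures were kept at 37 °C with 15% serum. The 4 groups were 3 cGAS KO females, 3 cGAS KO males, 2 WT females and 3 WT males, each library being a separate mouse per the series description. The allele behind the KO, the strain, the age and the passage number are not stated by the labels. The extraction text in the labels speaks of tissue, although the samples are labelled as cultured cells. The file headers name the libraries of each sex in a different style, so sex and preparation cannot be told apart.

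Smooth muscle contracts when myosin filaments pull on actin filaments, and a set of actin-binding proteins stabilises the filaments and gates access of myosin to them. Fibroblasts that take on part of this apparatus are called myofibroblasts, and in the lung they are known for wound closure and scarring, with Acta2 as their usual marker. Many genes of the set are known targets of serum response factor (SRF), which binds a DNA element called the CArG box together with coactivators of the myocardin family, and TGF-beta signalling is a known inducer. cGAS is a sensor of cytosolic DNA.

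The CArG box was looked for in promoters because it is the sequence feature best known in these genes. Promoter sequences from RefSeq (GRCm38.p6, 250 bases before to 50 after a gene start) were found for 7 of the 10 genes, with 8 windows in all. Actg2, Myh11 and Tagln had no window and were not searched. The box was searched as 10 bases: CC, then 6 bases that are each A or T, then GG. A CArG-like box was the same with 1 of the 6 core bases being G or C. Both patterns read the same on either strand. Of 32851 promoter windows in the table, 1.63% held a CArG box and 9.98% held a CArG or CArG-like box. Among the contractile genes, Myl9 held a CArG box and Acta2 and Myl9 each held CArG-like boxes. The bases before the start of these 2 genes are shown 5′ to 3′ on the gene's own strand, with the boxes in capitals.
Acta2 (chr19:34255374-34255623, GRCm38.p6, minus strand): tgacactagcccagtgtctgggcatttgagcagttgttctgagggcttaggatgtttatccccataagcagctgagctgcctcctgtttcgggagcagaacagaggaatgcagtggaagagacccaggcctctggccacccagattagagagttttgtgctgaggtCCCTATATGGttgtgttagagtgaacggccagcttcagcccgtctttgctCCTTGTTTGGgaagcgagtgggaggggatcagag
Myl9 (chr2:156775214-156775463, GRCm38.p6, plus strand): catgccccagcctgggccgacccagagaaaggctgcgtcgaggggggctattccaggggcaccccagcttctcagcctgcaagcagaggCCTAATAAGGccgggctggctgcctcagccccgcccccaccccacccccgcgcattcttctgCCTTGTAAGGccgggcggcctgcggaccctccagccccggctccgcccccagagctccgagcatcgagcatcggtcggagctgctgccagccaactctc
In Acta2 the first bases of the 2 CArG-like boxes lay 84 and 34 bases before the start. In Myl9 the CArG box began 161 bases and the CArG-like box 99 bases before the start. A match is a description of letters and no evidence of binding, and the absence of one says only that these letters are not in the window.

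Total counts ran from 27261958 to 48039328 per library. The targeted gene, Cgas (ENSMUSG00000032344), had 2.07 ± 0.255 CPM (CPM, counts scaled by library size; SD, n = 6) in KO and 8.24 ± 1.75 CPM (SD, n = 5) in WT libraries. Its log2 difference was -1.98 (SE 0.15, edgeR adjusted p = 0.000958), which goes with the labels, although reads from it remained in every KO library. The lung fibroblast markers, such as Col1a1, were summed to between 23386 and 33706 CPM over the libraries. Every contractile gene passed the low-count filter, with 734 to 106503 counts per library, so counting error is small beside the spread between animals.

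In cultures from males, the contractile genes were lower in KO than in WT, by 1.61-fold (Cald1) to 3.78-fold (Myh11). For 10 of 10 genes every KO male lay below every WT male, where 13.9% of all entries tested (genes and repeat subfamilies) did so. Cnn1, Myh11, Tpm1 and Lmod1 fell at an edgeR adjusted p under 0.05, the threshold for a call, which makes 4 of 10, where 1.22% of entries were called in either direction and 0.498% were called lower. In cultures from females the same genes did not differ detectably, and no gene was called over both sexes together. In bulk cultures, fewer cells of a type and less RNA per cell cannot be told apart. The plot of levels by library shows these groups.

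**Figure D1:**
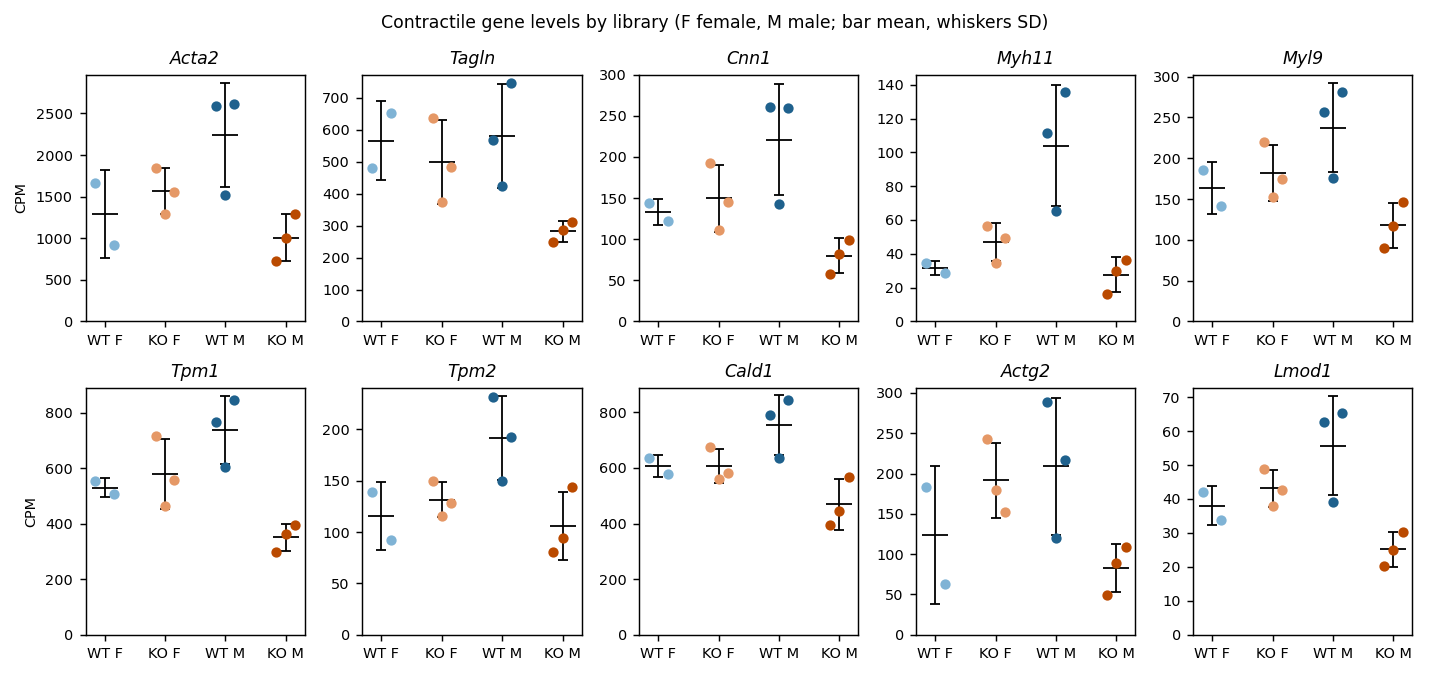
Level of each contractile gene in CPM (linear axis from 0) by group, with 1 point per library, the group mean as a bar and the SD as whiskers (F female, M male; n = 3, 3, 3 and 2 for KO females, KO males, WT males and WT females). The KO males sit below the WT males in all 10 panels, while the female groups overlap in all 10.

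The actins form the thin filament. Acta2 (ENSMUSG00000035783), smooth muscle alpha-actin, had 728, 1007 and 1291 CPM in the KO males and 2585, 1524 and 2613 CPM in the WT males. In the KO females it had 1848, 1294 and 1551 CPM, and in the WT females 1668 and 920 CPM. The male groups did not overlap, whereas the WT females lay on either side of KO female 2 and KO female 3. Group means were 1009 ± 282 CPM in KO males and 2241 ± 621 CPM in WT males (SD, n = 3 each). The log2 difference in males was -1.15 (SE 0.29, edgeR adjusted p = 0.0622), which missed the threshold. In females it was 0.27 (SE 0.32, edgeR adjusted p = 0.757).

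Actg2 (ENSMUSG00000059430), the gamma-actin of visceral smooth muscle, had 49.8, 89.1 and 109 CPM in the KO males against 289, 120 and 217 CPM in the WT males. The KO females had 243, 179 and 152 CPM and the WT females 184 and 62.7 CPM. Among the WT males the second was low, close to the highest KO male, and the 2 WT females differed widely. The male difference was -1.34 on the log2 scale with the largest SE of the 10 genes (0.43, edgeR adjusted p = 0.109). In females it was 0.64 (SE 0.49, edgeR adjusted p = 0.681), and it ran from 0.046 without WT female 2 to 1.61 without WT female 1 (edgeR adjusted p = 0.0695).

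Several of the genes encode proteins bound along the actin filament. Cnn1 (ENSMUSG00000001349), calponin, which restrains the myosin motor on actin, had 57.6, 82.5 and 99.6 CPM in the KO males and 261, 143 and 259 CPM in the WT males. The females had 193, 112 and 145 CPM (KO) and 144 and 122 CPM (WT). The KO females surrounded the WT females, while the male groups were apart. Cnn1 fell by 1.47 on the log2 scale in males, or 2.77-fold (SE 0.28, edgeR adjusted p = 0.0480), and its female difference was 0.17 (SE 0.31, edgeR adjusted p = 0.844).

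Cald1 (ENSMUSG00000029761), caldesmon, another inhibitor of the motor on actin, had 393, 443 and 569 CPM in KO males and 789, 636 and 844 CPM in WT males. Its female values were 676, 561 and 582 CPM (KO) and 635 and 579 CPM (WT). It had the smallest male difference of the 10 genes, -0.69 (SE 0.16, edgeR adjusted p = 0.0535), and a female difference of -0.0016 (SE 0.17, edgeR adjusted p = 0.999).

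The tropomyosins Tpm1 (ENSMUSG00000032366) and Tpm2 (ENSMUSG00000028464) lie along the actin filament, and both also have isoforms in cells that are not muscle. Tpm1 had 298, 362 and 395 CPM in the KO males and 766, 604 and 846 CPM in the WT males. The KO females had 716, 466 and 558 CPM and the WT females 555 and 506 CPM. Only the male groups were apart, and the gap between them was wide relative to the SD (49.4 CPM in KO and 123 CPM in WT males). Tpm1 fell by 1.07 on the log2 scale in males (SE 0.18, edgeR adjusted p = 0.0480), and its female difference was 0.13 (SE 0.20, edgeR adjusted p = 0.814).

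For Tpm2 the KO males had 80.3, 94.0 and 144 CPM and the WT males 232, 150 and 193 CPM, so that the highest KO male almost reached the lowest WT male. The KO females had 149.9, 116 and 129 CPM and the WT females 139 and 92.7 CPM, and these overlapped. Its male difference was -0.85 (SE 0.24, edgeR adjusted p = 0.0796) and its female difference 0.18 (SE 0.27, edgeR adjusted p = 0.806). Isoforms cannot be separated in counts per gene.

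Lmod1 (ENSMUSG00000048096), leiomodin, which nucleates actin filaments in smooth muscle, had 20.2, 24.9 and 30.2 CPM in the KO males and 62.6, 39.0 and 65.5 CPM in the WT males. The female values were 48.8, 37.9 and 42.6 CPM (KO) and 42.2 and 33.9 CPM (WT). It fell by 1.15 on the log2 scale in males, 2.22-fold (SE 0.21, edgeR adjusted p = 0.0480), and its female difference was 0.18 (SE 0.23, edgeR adjusted p = 0.778).

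Tagln (ENSMUSG00000032085), transgelin or SM22, an actin crosslinker and an early marker of the smooth muscle programme, had 248, 286 and 312 CPM in the KO males and 569, 425 and 748 CPM in the WT males. In females the values were 636, 375 and 483 CPM (KO) and 479 and 653 CPM (WT). The male difference was -1.04 (SE 0.24, edgeR adjusted p = 0.0540) and the female difference -0.18 (SE 0.26, edgeR adjusted p = 0.797). Values of Tagln are uncertain, because a gene model on the opposite strand, Gm48529, overlaps its exons and held between 99.0% and 99.3% as many counts in every library. In KO male 1, for example, Tagln had 11135 counts and Gm48529 had 11035. Its male difference was also -1.04 (SE 0.24, edgeR adjusted p = 0.0540), and no source used here states whether the counting used strand. Pcsk7, also on the opposite strand, overlaps the exons of Tagln too. It held 8.11% to 9.77% as many counts as Tagln in KO males and 3.60% to 6.17% in WT males. In KO females it held 3.68% to 5.59%, and in the WT females 4.54% and 2.15%.

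The myosin genes encode the motor. Myh11 (ENSMUSG00000018830), smooth muscle myosin heavy chain and the member most restricted to mature smooth muscle, had 16.3, 29.6 and 36.6 CPM in the KO males and 111, 65.1 and 136 CPM in the WT males. The KO females had 56.6, 34.5 and 49.5 CPM and the WT females 34.7 and 28.8 CPM. The 3 WT males stood above all other libraries, and the WT females lay within the range of the KO males. Myh11 fell by 1.92 on the log2 scale in males, 3.78-fold (SE 0.33, edgeR adjusted p = 0.0480), the largest male difference of the 10 genes. Its female difference was 0.56 (SE 0.36, edgeR adjusted p = 0.670).

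Myl9 (ENSMUSG00000067818), the regulatory light chain whose phosphorylation switches smooth muscle myosin on, and one of the genes with boxes shown above, had 90.3, 117 and 146 CPM in the KO males and 256, 176 and 281 CPM in the WT males. The female values were 219, 152 and 174 CPM (KO) and 186 and 141 CPM (WT), and the groups overlapped. Its male difference was -1.01 (SE 0.22, edgeR adjusted p = 0.0512), the nearest to the threshold of the 6 genes that missed it, and its female difference 0.16 (SE 0.25, edgeR adjusted p = 0.819).

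Per kilobase of exon (lengths from the GRCm38 annotation), the mean order in WT males was Acta2 at 1020 CPM per kb, Tagln at 292, Myl9 at 204, Actg2 at 134, Tpm1 at 114, Cnn1 at 80.8, Tpm2 at 65.9, Cald1 at 62.8, Lmod1 at 14.1 and Myh11 at 13.7 CPM per kb. Of neighbours in this order, the ranges over WT males were apart between Acta2 and Tagln and between Cald1 and Lmod1. All other neighbours overlapped. Sequence sharing with transcripts of other genes, read in the same direction, was small. It was 0.326% of the 50-base words for Acta2, 0.34% for Myh11 and 0% for the other 8. Opposite strands were not compared, so the 0% for Tagln leaves out its overlap with Gm48529 and Pcsk7, and its place in the order is uncertain.

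Levels of the 10 genes were correlated across libraries. KO male 1 was the lowest of the 11 libraries for all 10 genes. The highest was WT male 3 for 7 genes and WT male 1 for Cnn1, Tpm2 and Actg2. The ratio of highest to lowest library ran from 2.15 (Cald1) to 8.29 (Myh11). As a share of all counts, the 10 genes took 0.192%, 0.251% and 0.321% in the KO males and 0.607%, 0.398% and 0.620% in the WT males. The KO females took 0.467%, 0.339% and 0.387%, and the WT females 0.412% and 0.302%. Over the 45 pairs of genes, Pearson's r of log2 CPM across the 11 libraries had a median of 0.915 (0.582 to 0.988). With each group's mean subtracted it was 0.886 (0.248 to 0.976), so the genes also varied together among animals of 1 group. These values share libraries and carry no test. The heat map of levels relative to each gene's mean shows the pattern.

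**Figure D2:**
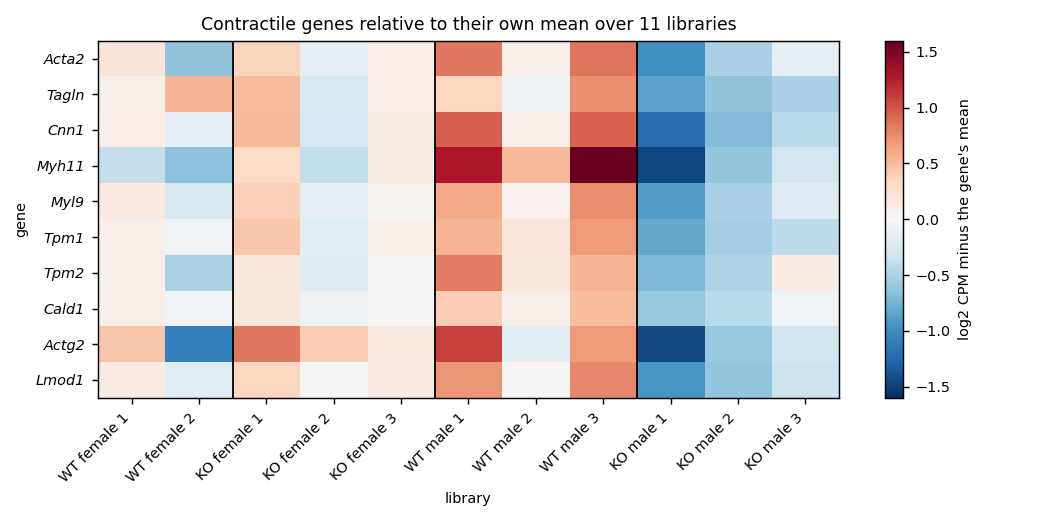
Colour gives log2 CPM minus the gene's mean over the 11 libraries, with genes as rows, libraries as columns and lines between the 4 groups. KO male 1 and KO male 2 are below the mean for all 10 genes, and WT male 1, WT male 3 and KO female 1 are above it for all 10, while others are mixed, such as WT female 2 from -1.11 (Actg2) to 0.55 (Tagln).

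With both sexes in 1 model (genotype and sex as terms), all 10 differences were negative, with a median of -0.55 against -0.0083 over all 22226 entries tested. None of the 10 was called at an edgeR adjusted p under 0.05, where 0.0045% of entries were, the 1 entry being Cgas. At an unadjusted p under 0.05, 5 of 10 were lower, where 6.6% of entries were lower. For 0 of 10 was every KO library below every WT library, as held for 0.351% of entries. The values closest to a call were Tagln at -0.67 (SE 0.22, edgeR adjusted p = 0.184) and Cald1 at -0.39 (SE 0.15, edgeR adjusted p = 0.240). Myh11 had the largest size, -0.90, with an SE of 0.48 (edgeR adjusted p = 0.349). With limma-voom and sample quality weights, 8 of the 10 were called lower, where 12.6% of entries were called in either direction. Leaving out WT female 1 left Tagln called (edgeR adjusted p = 0.0426), with 7.06% of entries called.

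In males alone, the median difference was -1.11 against -0.019 over all 22889 entries tested, and 10 of 10 were lower at an unadjusted p under 0.05, where 9.94% of entries were. The calls of Cnn1, Myh11, Tpm1 and Lmod1 lie close to the threshold. Leaving out KO male 1, KO male 2, WT male 1, WT male 3 or any of the KO females left 0 of 10 called, with at most 0.0748% of entries called. Leaving out KO male 3 or WT male 2 gave 8, with 4.92% and 4.28% of entries called. Leaving out WT female 1 or WT female 2 gave 10, with 7.81% and 8.87% of entries called. The other female is then assumed to vary like the other groups. Scaling by RLE or by library totals also gave 0 (lowest adjusted p 0.0509 and 0.0540), with 0.0349% and 0.0174% of entries called. DESeq2 called 10, with 10.7% of entries called. The sign was negative for all 10 genes in all 20 alternatives. As every KO male lay below every WT male, leaving out 1 library could hardly have reversed a sign.

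In females alone, the median was 0.18 against 0.025 over all entries, with 8 differences positive and 2 negative. Calls numbered 0 of 10 in edgeR, where 0.00437% of entries were called, and 0 of 10 had an unadjusted p under 0.05, where 6.63% of entries did. DESeq2 also called 0. The SEs, from 0.17 to 0.49, rest on 2 WT females, of which WT female 2 lay within the range of the KO males for 5 of the 10 genes (Acta2, Actg2, Myh11, Myl9 and Tpm2). Smaller differences were not detectable in this design.

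The difference between the male and the female effect (male minus female) was negative for all 10 genes, with a median of -1.26 against -0.031 over all entries. It was largest for Myh11, -2.48 (SE 0.49), and Actg2, -1.98 (SE 0.65), and smallest for Cald1, -0.69 (SE 0.23). All 10 had an unadjusted p under 0.05, where 5.92% of entries were lower at that level. None of the 10 was called in edgeR (adjusted p 0.308 to 0.356), and 0% of entries were, so that a difference between the sexes is not established. DESeq2 called 4 of the 10, with 1.29% of entries called, and leaving out WT female 1 gave 5, with 9.96% of entries called. Levels between males and females, with genotype as a term, had a median of -0.16 (male minus female), and none of the 10 was called, where 4.85% of entries were. Tagln came nearest, at -0.45 (SE 0.22, edgeR adjusted p = 0.202).

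**Figure D3:**
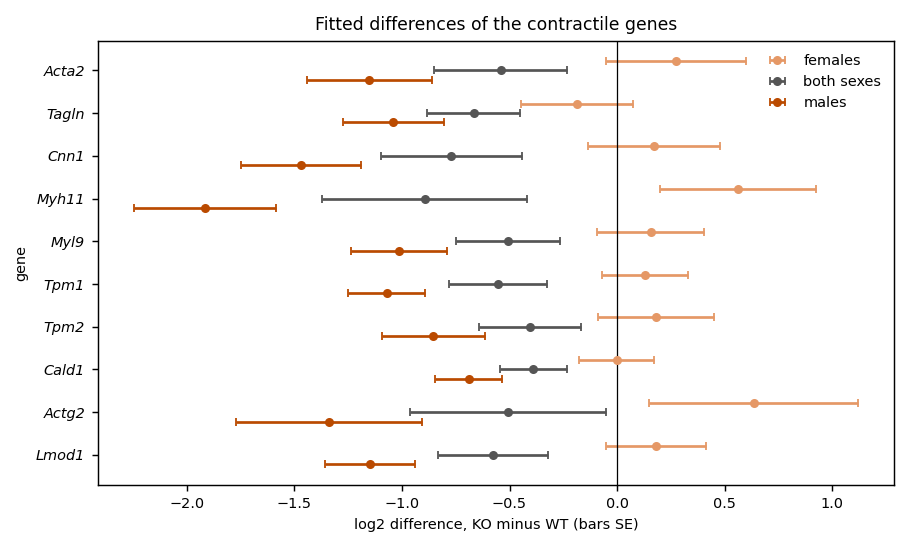
Log2 difference of KO minus WT for each contractile gene in females, in both sexes and in males; points are fitted values, bars are SE, and the vertical line is 0. The male values lie between -1.92 and -0.69, the female values between -0.18 and 0.64.

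**Figure D4:**
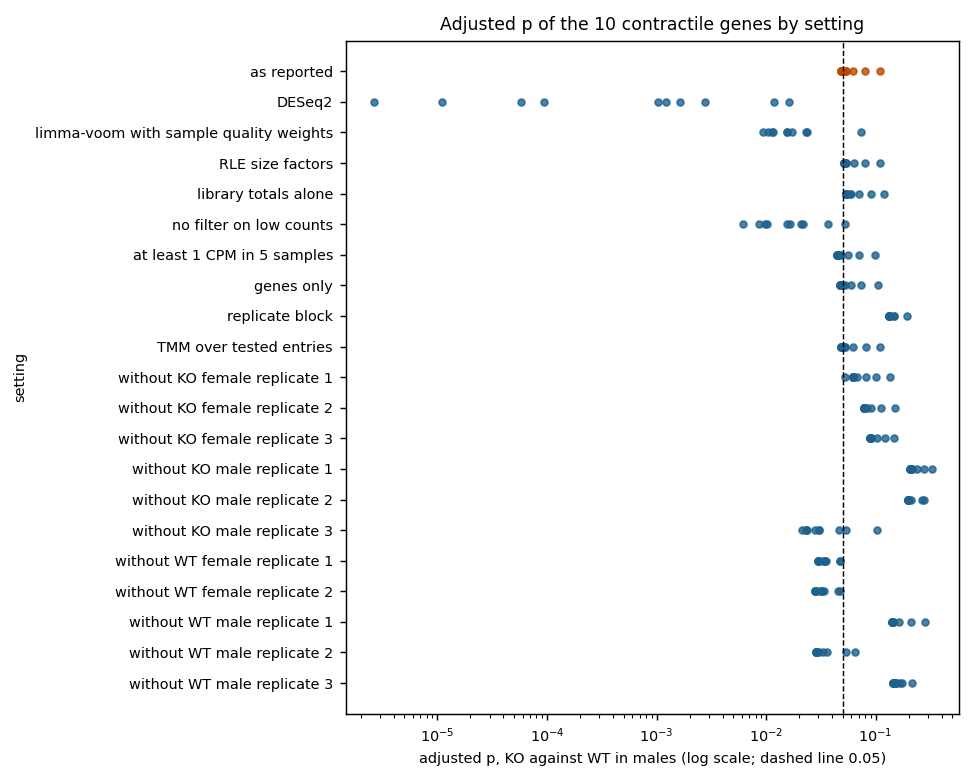
Adjusted p (log axis) of the KO against WT difference in males for the 10 contractile genes, 1 point per gene, under the reported fit and each alternative; the dashed line is 0.05. The points straddle the line as reported and move to either side of it with the tool, the filter and the library left out.

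The remaining genes of smooth muscle contraction and adhesion were taken from a list of 35. In males all 35 had a negative difference, with a median of -0.68 against -0.019 over all entries. At an unadjusted p under 0.05, 24 of 35 were lower, where 9.94% of entries were. Called lower were 3, where 0.498% of entries were. These 3 were Smtn (smoothelin, -1.05, SE 0.19), Pdlim7 (an actin-associated LIM protein, -1.07, SE 0.21) and Nexn (an F-actin binding protein, -0.89, SE 0.18), each with an edgeR adjusted p of 0.0480, named after their values were seen. In females the list had 24 positive and 11 negative differences and 0 calls, with a median of 0.16. Over both sexes 32 of 34 tested were negative, with a median of -0.29 and 0 calls. Genes with small p over both sexes were Itga5 (the fibronectin receptor subunit, -0.67, edgeR adjusted p = 0.176) and Ppp1r12b (a myosin phosphatase subunit, -0.39, edgeR adjusted p = 0.177).

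The nonmuscle actomyosin genes, which every cell uses, had negative differences in males in 16 of 20 cases, none called, with a median of -0.21. In males 6 of 20 were lower and 2 higher at an unadjusted p under 0.05, where 9.94% of entries were lower. In females 17 of 20 were positive, none called, with a median of 0.22. Over both sexes they split 10 to 10, with a median of 0.0028. The smallest p over both sexes were those of Tpm4 (-0.27, edgeR adjusted p = 0.213), Diaph1, a formin that elongates actin filaments (0.20, edgeR adjusted p = 0.247), and Actn4, an actin crosslinker (-0.30, edgeR adjusted p = 0.264).

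Of the regulators, Srf had 33.8, 40.1 and 43.9 CPM in KO males and 65.1, 46.7 and 54.9 CPM in WT males, without overlap. Its male difference was -0.50 (SE 0.17, edgeR adjusted p = 0.122) and its difference over both sexes -0.22 (edgeR adjusted p = 0.476). Myocd, the smooth muscle coactivator of SRF, was low, with 13 to 100 counts per library. It had 0.311, 0.419 and 0.325 CPM in KO males and 2.43, 0.541 and 1.75 CPM in WT males, a difference of -2.14 (SE 0.55, edgeR adjusted p = 0.0638). WT male 1 and WT male 3, the libraries with the highest mean log2 CPM over the contractile genes, were also those highest in Myocd. They were not the highest for every contractile gene, and a link was not tested. Over both sexes the difference of Myocd was -1.02 (edgeR adjusted p = 0.375), and in females it was 0.53 (edgeR adjusted p = 0.758). The related coactivators had smaller differences over both sexes, Mrtfa -0.017 (edgeR adjusted p = 0.925) and Mrtfb 0.25 (edgeR adjusted p = 0.174). In males Mrtfa was -0.11 (edgeR adjusted p = 0.485) and Mrtfb 0.22 (edgeR adjusted p = 0.223). In the list of 20 to which these belong, 14 of 19 tested were negative in males and 17 of 19 positive in females. Medians were -0.47 and 0.14, with 0 calls in either. At an unadjusted p under 0.05 in males, 11 of 19 were lower and 2 higher, where 9.94% of entries were lower. Over both sexes 12 of 18 were negative, with a median of -0.20 and 0 calls. Tead4, a partner of YAP (-0.69, edgeR adjusted p = 0.189), and Jag1, a Notch ligand (-0.44, edgeR adjusted p = 0.197), had small p over both sexes alongside Mrtfb.

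Among 25 TGF-beta ligands, receptors and targets, differences in males were mixed, with 17 negative and 8 positive, a median of -0.29 and 0 calls. Of the 25, 11 were lower and 4 higher in males at an unadjusted p under 0.05, where 9.94% of entries were lower. In females 14 were negative and 11 positive, with a median of -0.085 and 0 calls, and over both sexes 18 were negative, with a median of -0.15 and 0 calls. Tgfb1, the ligand, had 265, 272 and 214 CPM in KO males and 164, 194 and 146 CPM in WT males. It was higher in every KO male, opposite in direction to the contractile genes, at 0.57 (SE 0.13, edgeR adjusted p = 0.0512). Tgfbr2, a receptor, was 0.48 over both sexes (edgeR adjusted p = 0.173), while Ankrd1, a target in many mesenchymal cells, was -0.75 and Lrrc32, which tethers latent TGF-beta, was -0.52 (edgeR adjusted p = 0.173 for both).

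**Figure D5:**
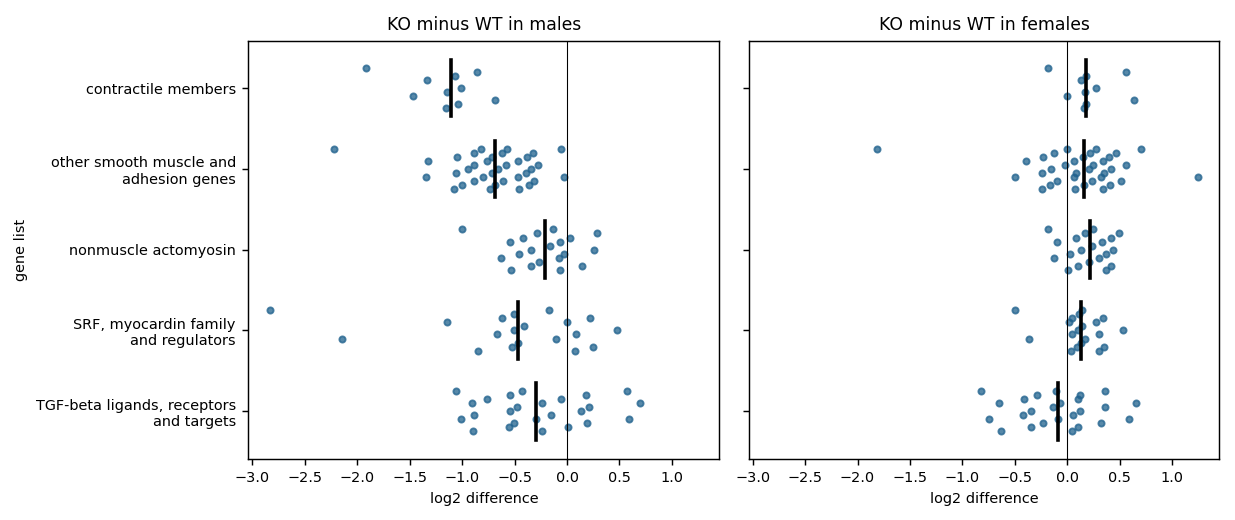
Log2 difference of KO minus WT in males (left) and females (right) for each tested gene of 5 lists; points are genes, thick bars are list medians and the thin line is 0. In males the medians are -1.11, -0.68, -0.21, -0.47 and -0.29 from top to bottom, and in females 0.18, 0.16, 0.22, 0.14 and -0.085.

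Genes whose pattern across the 11 libraries was most like that of the 10 were ranked by Pearson's r of log2 CPM with their mean standardised level, among 9507 genes. The highest were Foxs1 (r = 0.987), Fermt2 (0.987), Cnn2 (0.986), Dzip1l (0.986), Mprip (0.985), Samd4 (0.982), Tns1 (0.981), Map4k5 (0.981), Yap1 (0.981) and Bcar1 (0.980). In males Foxs1 had a mean of 9.20 CPM in KO and 18.7 CPM in WT, and Tns1, a focal adhesion protein, 349.8 and 672.6 CPM. Foxs1, Dzip1l and Tns1 were called lower in males, at -1.02, -0.85 and -0.94 (edgeR adjusted p = 0.0480 each), and the other 7 were not. Over all entries 0.498% were called lower. Because these genes were chosen by their pattern in the same libraries, lower levels in KO males follow from the choice and are no separate result.

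Markers of other cell types are set beside the male difference. The macrophage and leukocyte markers (18 of 20 tested) summed to 14937, 13345 and 8943 CPM in the KO males and 6504, 8348 and 6183 CPM in the WT males, with KO male 1 highest. In males 18 of 18 were positive, with a median of 0.83 against -0.019 over all entries. Of these markers 4 were called higher (Adgre1, Cd68, Fcer1g and Laptm5), where 1.22% of entries were called in either direction. In KO females the sum was 8794 to 9864 CPM and in WT females 6604 to 9099 CPM, and Cd3e, a marker of T cells, was under 0.2 CPM in every library. The pericyte markers (9 of 10 tested, Higd1b under 0.2 CPM throughout) summed to 354 to 501 CPM in KO males and 440 to 545 CPM in WT males, and to 455 to 493 CPM in KO females and 395 to 494 CPM in WT females. Most of this sum came from Pdgfrb and Ndufa4l2, at -0.12 and 0.17 in males. Over the list, 7 of 9 were negative in males, with a median of -0.66. At an unadjusted p under 0.05, 4 of 9 were lower, where 9.94% of entries were. Of the 4, Mcam, which smooth muscle also expresses, was called lower in males (-1.51, SE 0.30, edgeR adjusted p = 0.0480), where 0.498% of entries were. Cspg4, also of the 4, had a mean of 29.2 CPM in KO and 72.2 CPM in WT males. The epithelial markers (7 of 10 tested, Scgb1a1 under 0.2 CPM throughout) summed to 10.7 to 14.1 CPM in KO males and 22.4 to 55.7 CPM in WT males. The mesothelial markers (7 of 7 tested) summed to 26.2 to 45.3 CPM and 31.9 to 157 CPM, and the endothelial markers (10 of 10 tested) to 55.7 to 103 CPM in KO males, overlapping the WT males (up to 95.2 CPM). Most of the endothelial sum came from Vwf and Kdr, whose male differences were 1.22 and 0.51, while the other 8 markers were negative. In males the endothelial markers had a median of -1.97 with 7 of 10 lower at an unadjusted p under 0.05, where 9.94% of entries were. The epithelial markers had a median of -1.41 with 7 of 7 negative, and the mesothelial a median of -1.40 with 6 of 7 negative. None of these 3 lists had a call in males. The part of these cells in the contractile result was not tested. Markers of skeletal muscle reached 26.4 CPM and of cardiac muscle 1.92 CPM in total in males, with Myod1, Myog, Pax7 and Ckm and with Actc1, Myh6, Myh7 and Nppa under 0.2 CPM in every library. The skeletal muscle sum was highest in WT female 2, at 57.8 CPM. Most of it came from Acta1, at -1.16 in males (edgeR adjusted p = 0.306) and -1.39 over both sexes (edgeR adjusted p = 0.185). Lung fibroblast markers overlapped between the male groups, at 23386 to 29767 CPM in KO and 24744 to 31156 CPM in WT. Most of this sum came from Col1a1, Col1a2 and Col3a1, whose male differences were -0.28, -0.22 and 0.77. Over the list, 8 of 12 were positive in males and 4 negative, with a median of 0.13 and 0 calls.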

How the data were processed

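Raw counts, whole numbers without normalization, were deposited by the authors in 1 table per library. Per the submitters' processing notes, Trim Galore and STAR were used and the genome build was GRCm39. The program that counted reads, its use of strand, its handling of reads with several matches, the annotation and all versions are not given in the sources used here. Each table held 58223 entries, 56980 of them Ensembl genes and the rest repeat subfamilies. Symbols came from GENCODE vM21 (52073 identifiers matched).

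The 10 genes and the other gene and marker lists were chosen with earlier results of these data known, so they are described by counts and medians and have no test of their own. The genes named are the 10 members, the 3 genes of smallest p over both sexes in each other list, Srf, Myocd, Mrtfa, Mrtfb, Tgfb1 and Cgas, and the 10 genes most like the members in pattern (average log2 CPM of at least 3, prior count 2). Some results under this rule are not reported here. Gm48529, Pcsk7, other genes of the lists and cell type markers were named after their values were seen. They overlap a member, were called or carry most of a sum.

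Counts were tested in edgeR 4.0.16 (R 4.3.3) by its quasi-likelihood F-test. TMM factors (0.963 to 1.025) came from all entries, and filterByExpr used a minimum count of 10. The comparison over both sexes and that of males and females used sex and genotype as terms (8 residual degrees of freedom). The comparisons within a sex and their difference used 1 mean for each of the 4 groups (7 residual degrees of freedom). Adjusted p are Benjamini-Hochberg values over every entry tested, called under 0.05. CPM use TMM-scaled library sizes. Errors are SD for CPM and SE for fitted log2 differences, which are KO minus WT unless stated. Alternatives were DESeq2 1.42.0, limma-voom (limma 3.58.1) with sample quality weights, other scalings and filters, a replicate block and each library left out. The fits were also run on data simulated from the libraries' own spread, with known changes in KO males. Genes varied independently there and the sexes did not otherwise differ, so that run cannot show how reliable the calls are. Libraries of 1 group differed beyond counting noise (chi-square per degree of freedom 12 to 144), so none was counted as a duplicate.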

Additional observations from a re-analysis of the deposited data

Results flagged for a closer look

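Myocd, the smooth muscle coactivator of SRF, had 1.25 CPM in KO female 1, while the other 5 KO libraries had 0.311 to 0.644 CPM, so that library lay far from the rest of its genotype. The same library was the highest KO library for all 10 contractile genes. In all, 52 groups of libraries of 1 gene and 1 genotype were looked at in this way, and chance alone would set about 1 in 20 of them apart.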

How the results depend on the processing

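Counts of contractile genes (members) and of all entries called, and the members' median log2 difference, are given where a setting moved a count by over 1.5 times, with others that bear on a call. Over both sexes, DESeq2 called 525 entries, limma-voom 8 members and 2792 entries, no filter 3 entries and the replicate block 0. In males, members and entries called were 10 and 2113 (DESeq2), 9 and 4192 (limma-voom), 0 and 8 (RLE), 0 and 4 (library totals), 9 and 1079 (no filter), 7 and 751 (at least 1 CPM in 5 samples), 0 and 0 (replicate block), 6 and 424 (genes only) and 4 and 450 (TMM over the tested entries), the last a setting chosen after seeing the data. In females, entries called were 6 (DESeq2) and 0 (limma-voom, library totals, replicate block). For the difference between the sexes, DESeq2 called 4 members and 226 entries, and no filter 2 entries. Between males and females, DESeq2 called 2854 entries, limma-voom 3 members and 5948 entries with a median of -0.45, and genes only 605 entries. Leaving out 1 library gave, over both sexes, 0 to 1 members (Tagln, without WT female 1, edgeR adjusted p = 0.0426), 1 to 1615 entries and a median of -0.75 to -0.38. It gave in males 0 to 10 members, 0 to 2114 entries and -1.30 to -0.96, and in females 0 members, 0 to 3699 entries and 0.020 to 0.36. For the difference between the sexes it gave 0 to 5 members (5 without WT female 1), 0 to 2411 entries and -1.44 to -1.09, and between males and females 0 members, 112 to 3383 entries and -0.36 to 0.018. Signs changed for Mrtfa (0.0036 in limma-voom; -0.059 to 0.013 with 1 library left out) and Cald1 in females (0.0092 with library totals, 0.022 with the replicate block). In females, leaving out 1 library gave Cald1 -0.10 to 0.067, Cnn1 -0.069 to 0.34, Myl9 -0.039 to 0.37, Tpm1 -0.068 to 0.26, Acta2 -0.10 to 0.77, Tagln -0.42 to 0.046, Tpm2 -0.095 to 0.50 and Actg2, with no change of sign, 0.046 to 1.61. The cause was not tested. Deviations from group means correlated at -0.148 to 0.072 between same-numbered libraries and at -0.238 to 0.193 between the others. With 2 or 3 libraries in a group, these values cannot decide whether the numbers pair the libraries. Under the replicate block the male log2 differences ran from -1.93 to -0.70, against -1.92 to -0.69 as reported. The block left 4 residual degrees of freedom, and how far that accounts for its 0 calls was not tested. The 10 differences were negative in all 20 alternatives in males, over both sexes and for the difference between the sexes. In males, where KO and WT did not overlap, leaving out 1 library could hardly have reversed a sign.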
